A study of Homo sapiens with 6 samples.

Results

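Matrix metalloproteinases (MMPs) are zinc-dependent enzymes that cut collagens and other proteins of the extracellular matrix, and tissue inhibitors of metalloproteinases (TIMPs) are secreted proteins that block them. Most MMPs are made as inactive precursors, and several are controlled at transcription by AP-1, the factor formed by FOS and JUN proteins. In melanoma they are studied for their part in invasion, as is basigin, a membrane glycoprotein encoded by BSG that was first described as an inducer of MMP production. The genes described here are MMP1, MMP2, MMP3, MMP8, MMP14, MMP15, TIMP1, TIMP2, TIMP3 and BSG, which were taken by gene symbol from 25438 named rows of the deposited expression file. Each of the 10 had 1 row, under its current symbol, and 7 of them passed the detection filter that left 12345 genes for testing. The filter asked for a detection p-value under 0.05 on 3 or more of the 6 arrays. Where the p-value is a rank among negative controls, this means a signal higher than most of them on that array. Some rows, those of BSG and TIMP2 among them, had detection p-values that were no such ranks.

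The RNA came from A375, an established human melanoma cell line, seeded at 100000 cells per flask. The DMSO group received the solvent and the LEF25 group received leflunomide at 25 µM, each for 3 days. Leflunomide inhibits dihydroorotate dehydrogenase, an enzyme of pyrimidine synthesis. There were 3 arrays per treatment, and whether each was a separate culture is not said in the labels. The p-values therefore measure how these 6 arrays vary, and that variation may be technical. The array measures the average over the flask, so fewer cells expressing a gene and less RNA per cell cannot be told apart.

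Leflunomide replicate 3 stood apart from the rest. Its mean signal was 128.9, against 261.7 to 370.5 on the other arrays, and across genes its correlation with the other arrays was 0.890 to 0.902, where those 5 had 0.988 to 0.997 among themselves. Changes of single genes below are therefore given with all 6 arrays and without this one. Among melanoma markers, SOX10, VIM, CSPG4 and S100A1 were detected on all 6 arrays, while MLANA, TYR, DCT and S100B were detected on none. Of the fibroblast markers, COL1A2, COL3A1 and THY1 were detected on no array. The summed normalized signal of the 9 fibroblast markers was 354 to 381 with DMSO and 384 to 416 with leflunomide, and 1 of the 5 tested, the growth factor receptor gene PDGFRB, rose by 0.90 on the log2 scale (limma BH-adjusted p = 0.032, adjusted after Benjamini and Hochberg over all genes tested). Without leflunomide replicate 3 PDGFRB rose by 0.95, and 2 fibroblast markers, the proteoglycan genes LUM and DCN, fell, at −1.0 and −0.86 (limma BH-adjusted p = 0.00058 and 0.00031). With all arrays these were at −1.04 and −0.68 and did not pass (limma BH-adjusted p = 0.082 and 0.081). For these and the later markers, limma called 0.235% of all genes higher and 0.834% lower with all arrays. Without leflunomide replicate 3 the shares were 9.33% and 9.94%. The melanocyte gene PMEL, detected on 1 leflunomide array, fell by 1.06 (limma BH-adjusted p = 0.034), and without leflunomide replicate 3 it was at least 2.37-fold lower. Under median scaling of all arrays no gene passed, these included (1675 of 12345 at an unadjusted p under 0.05 by limma). The 8 leukocyte and macrophage markers summed to 1086 to 1187 with DMSO and 776 to 1038 with leflunomide, with PTPRC and TYROBP detected on no array. Most of this sum was CD68, at 953, 971 and 880 with DMSO and 577, 573 and 824 with leflunomide. None of the leukocyte and macrophage markers passed with all arrays. All 4 tested had an unadjusted p under 0.05 by limma and treatment groups that did not overlap. These held for 16.9% and 29.8% of all genes. Without leflunomide replicate 3 CSF1R was higher and CD68 and LYZ were lower (limma BH-adjusted p = 0.029, 0.00055 and 0.0090). The 5 endothelial markers summed to 137 to 143 with DMSO and 119 to 145 with leflunomide, and the 6 epithelial markers to 1400 to 1903 and 1708 to 2687. Of these, CDH1, KRT5, KRT19, VWF, CDH5 and KDR were detected on no array. Most of the epithelial sum was KRT18, at 1708, 1236 and 1584 with DMSO and 1545, 1570 and 2491 with leflunomide. KRT18 did not pass with all arrays or without leflunomide replicate 3 (limma BH-adjusted p = 0.55 and 0.81). The part of these markers in the values below was not tested.

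With all 6 arrays none of the 7 tested genes passed limma's threshold of an adjusted p under 0.05, against 1.07% of all 12345 genes called in either direction, and 3 of them, MMP3, TIMP1 and TIMP3, had an unadjusted p under 0.05, against 16.9% of all genes. In the fit of the 5 other arrays, called the 5-array fit below, limma called 4 of the 7, where the share of all genes was 19.3%. MMP1 and MMP3 were then higher with leflunomide (9.33% of all genes were called higher) and TIMP1 and TIMP3 lower (9.94% were called lower). MMP2, MMP15 and TIMP2 passed in neither fit. Common-mean scaling of the 5 arrays called 4 members, 2 higher and 2 lower, and median scaling of them called TIMP3 alone. In that common-mean fit the SE was 0.105 for each of the 7. Its p-values therefore do not measure the spread of each gene between arrays. The leflunomide arrays lay wholly on 1 side of the DMSO arrays for 4 of the 7 genes, MMP3, TIMP1, TIMP2 and TIMP3, and for 29.8% of all genes. The median log2 fold change of the 7 was −0.02, beside −0.0020 for all genes.

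The promoters of TIMP1 and TIMP3 are shown because both inhibitor genes were lower on all 3 leflunomide arrays than on any DMSO array. Both are the 250 bases before the RefSeq start of the gene in build GRCh38.p14, 5′ to 3′. They lie at chrX:47582186-47582435 on the plus strand and at chr22:32801455-32801704 on the plus strand. Capitals mark the GC box GGGCGG, a motif of SP-family factors, on either strand, where it reads GGGCGG or CCGCCC, and in TIMP1 also TGAGTAA, which is 1 letter away from the AP-1 motif TGAGTCA.
TIMP1: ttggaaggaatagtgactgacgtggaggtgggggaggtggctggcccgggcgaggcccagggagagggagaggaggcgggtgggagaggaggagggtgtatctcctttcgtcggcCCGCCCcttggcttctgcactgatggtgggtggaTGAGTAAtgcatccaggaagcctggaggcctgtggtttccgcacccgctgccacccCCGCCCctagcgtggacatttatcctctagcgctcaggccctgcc
TIMP3: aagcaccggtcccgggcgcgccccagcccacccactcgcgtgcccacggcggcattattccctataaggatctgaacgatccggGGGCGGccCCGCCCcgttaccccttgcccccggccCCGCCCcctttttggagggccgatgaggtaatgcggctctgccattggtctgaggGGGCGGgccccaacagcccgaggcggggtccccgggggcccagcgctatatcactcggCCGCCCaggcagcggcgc

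The TIMP1 window held 2 GC boxes and 1 copy of TGAGTAA, whose first base lies at −101 from the start, and the TIMP3 window held 5 GC boxes. A GC box on either strand was present in 42.6% of 35114 RefSeq promoter windows of the same length, TGAGTAA in 2.21% and TGAGTCA in 4.2%. The motifs were searched on both strands, and no 2 of these motifs overlap. The GC box was also in the window of MMP15, with 5 copies, that of MMP14, with 1, and a window of BSG, with 3. MMP15 passed in neither fit, and MMP14 and BSG did not enter the test. RefSeq promoter windows were matched for 6 of the 10 genes, MMP8, MMP14, MMP15, TIMP1, TIMP3 and BSG, and none of these held TGAGTCA. A match of letters is a description and not evidence of binding.

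MMP1, interstitial collagenase, cuts fibrillar collagens. Its signal, on the linear scale of the deposited file, was 106, 117 and 88.6 on DMSO replicates 1, 2 and 3 and 99.0, 135 and 41.5 on leflunomide replicates 1, 2 and 3. Detection p-values were 0.0040, 0.0026 and 0.011 with DMSO and 0.0026, 0.0013 and 0.21 with leflunomide, so the gene was above background on every array except leflunomide replicate 3. On that array the negative controls averaged 36.8 ± 6.52 (SD), so its MMP1 signal lay within 1 SD of them. After normalization, the other leflunomide arrays, at 6.04 and 6.23 on the log2 scale, were above all 3 DMSO arrays, at 5.39 to 5.84, and leflunomide replicate 3, at 4.63, was below them. The log2 fold change was −0.02 ± 0.43 (SE) with all arrays (limma BH-adjusted p = 0.98, 95% interval −1.07 to 1.02). In the 5-array fit MMP1 rose 1.45-fold (log2 fold change 0.53 ± 0.14 SE, limma BH-adjusted p = 0.021). Median scaling of those 5 arrays gave 0.30 and did not pass (limma BH-adjusted p = 0.49), and common-mean scaling gave 0.29 and passed (limma BH-adjusted p = 0.038). The common-mean p rests on an SE of 0.105 that every tested member shared, not on the spread of MMP1 itself.

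MMP8, the collagenase of neutrophils, was not above background. Its signals were 60.3, 62.7 and 62.2 with DMSO and 52.9, 59.2 and 35.5 with leflunomide. All 6 detection p-values were 0.15 or higher, so no fold change is given.

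MMP3, stromelysin-1, degrades many matrix proteins and activates other MMP precursors, MMP1 among them. Its signal was 193, 156 and 142 with DMSO and 163, 225 and 82.5 with leflunomide, each with a detection p of 0. After normalization the leflunomide arrays lay close together at 7.10, 7.18 and 7.25 on the log2 scale, while the DMSO arrays were at 6.98, 6.29 and 6.39. All leflunomide arrays were thus above all DMSO arrays, with DMSO replicate 1 next to them. The log2 fold change was 0.62 ± 0.20 (SE), which did not pass over all genes (limma BH-adjusted p = 0.19). It was almost the same size in the 5-array fit, at 0.61 ± 0.17 (SE), and passed (1.53-fold, limma BH-adjusted p = 0.027). For MMP3 the 5 arrays gave 0.35 under median scaling (limma BH-adjusted p = 0.39) and 0.37 under common-mean scaling (limma BH-adjusted p = 0.0041, from the same shared SE). Median scaling of all arrays put MMP3 at −0.041 and the median over every tested gene at −0.53, so MMP3 stayed on its upper side.

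MMP3 had the largest absolute change among the tested members with all arrays. The genes whose normalized log2 signal followed it most closely were CRYBA2, DNA2 and FLJ14668, with Pearson correlations of 0.990, 0.987 and 0.985 over the 6 arrays. None of these 3 passed limma's threshold, and their log2 fold changes were 0.09, 0.09 and 0.23. The correlations describe 6 arrays, including leflunomide replicate 3, and are the highest of all genes tested.

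**Figure D1:**
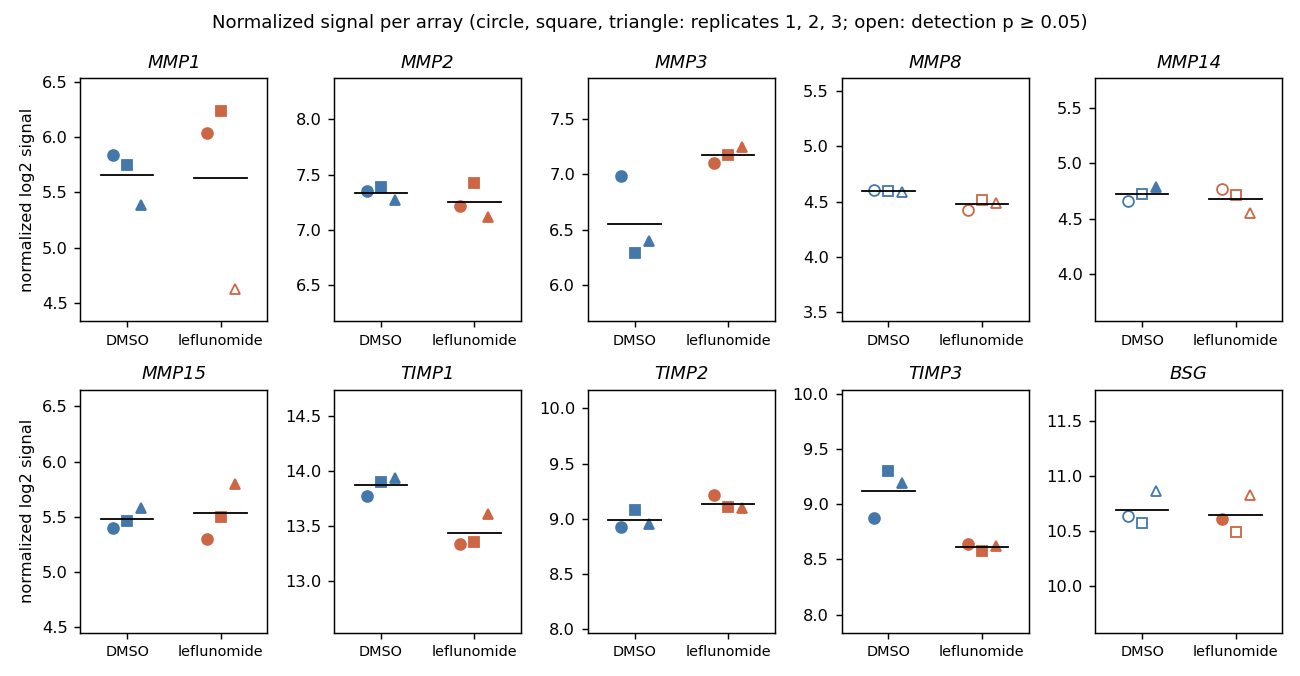
Normalized log2 signal (vertical axis, the same span in each panel) of the 10 genes on the 3 DMSO arrays (blue) and the 3 leflunomide arrays (orange), with black lines at the group means, replicates 1, 2 and 3 as circle, square and triangle, and open symbols where the detection p was 0.05 or more. MMP1 drops to 4.63 on leflunomide replicate 3, while TIMP1 and TIMP3 are below all DMSO arrays on all 3 leflunomide arrays.

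MMP2, gelatinase A, digests denatured collagen and type IV collagen of basement membranes. Its signal was 239, 298 and 228 with DMSO and 173, 262 and 78.5 with leflunomide, detected on every array. The normalized values overlapped, at 7.26 to 7.39 on the log2 scale with DMSO and 7.12 to 7.42 with leflunomide. The log2 fold change was −0.08 ± 0.12 (SE, limma BH-adjusted p = 0.72), with a 95% interval of −0.37 to 0.20, and without leflunomide replicate 3 it was −0.02 ± 0.11 (SE).

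MMP14 and MMP15 encode membrane-anchored MMPs, and MMP14 activates the precursor of MMP2 at the cell surface together with TIMP2. MMP14 signals were 62.1, 67.9 and 69.1 with DMSO and 64.5, 66.7 and 38.5 with leflunomide. MMP14 was above background on DMSO replicate 3 alone, with a detection p of 0.049, and did not enter the test. With no detection filter its difference was −0.05 ± 0.08 on the log2 scale (SE, limma BH-adjusted p = 0.83 over 25233 genes, exact two-sided permutation p = 0.6, where 0.1 is the smallest that 3 arrays against 3 allow). Without leflunomide replicate 3 the difference was 0.02 ± 0.06 (SE).

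MMP15 was above background on all 6 arrays, with signals of 86.6, 101 and 96.4 with DMSO and 75.4, 94.5 and 52.0 with leflunomide. The normalized values of the groups overlapped. Its log2 fold change was 0.05 ± 0.15 (SE, limma BH-adjusted p = 0.87) with all arrays, with a 95% interval of −0.32 to 0.42, and −0.09 ± 0.11 (SE, limma BH-adjusted p = 0.62) without leflunomide replicate 3.

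TIMP1, a secreted inhibitor of most soluble MMPs, was lower on every leflunomide array. Its signal was 16435, 19489 and 17811 with DMSO and 10000, 13166 and 6025 with leflunomide, with a detection p of 0 throughout. After normalization it was at 13.78, 13.90 and 13.93 on the log2 scale with DMSO and at 13.33, 13.36 and 13.61 with leflunomide, so the groups did not overlap and leflunomide replicate 3 was nearest to the DMSO arrays. With all arrays the log2 fold change was −0.43 ± 0.12 (SE), not past the threshold (limma BH-adjusted p = 0.15). TIMP1 fell 1.45-fold in the 5-array fit (log2 fold change −0.54 ± 0.10 SE, limma BH-adjusted p = 0.0032), but under median scaling of the same 5 arrays it did not pass (limma BH-adjusted p = 0.086).

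TIMP2 both inhibits MMPs and, bound to MMP14, brings the MMP2 precursor to its activator. Its signal was 647, 866 and 650 with DMSO and 563, 759 and 230 with leflunomide, detected on every array. The normalized log2 values were 8.93, 9.08 and 8.95 with DMSO and 9.21, 9.11 and 9.10 with leflunomide, so the leflunomide arrays were all slightly above the DMSO arrays. The log2 fold change of 0.15 ± 0.10 (SE) did not pass (limma BH-adjusted p = 0.49, 95% interval −0.09 to 0.39), nor did 0.17 ± 0.10 (SE) without leflunomide replicate 3 (limma BH-adjusted p = 0.27). Under median scaling with all arrays it was −0.59, near the −0.53 of all genes.

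TIMP3 differs from the other TIMPs in binding to the extracellular matrix, and it also inhibits ADAM proteases such as ADAM17. Its signal was 625, 999 and 754 with DMSO and 396, 536 and 172 with leflunomide, with a detection p of 0 on each array. The normalized log2 values were 8.88, 9.30 and 9.19 with DMSO and 8.64, 8.57 and 8.63 with leflunomide. Leflunomide replicate 3 lay between the other leflunomide arrays, and the spread was wider with DMSO (SD 0.22, n = 3) than with leflunomide (SD 0.034, n = 3). With all arrays the log2 fold change was −0.51 ± 0.13 (SE) and did not pass (limma BH-adjusted p = 0.14). TIMP3 fell 1.43-fold in the 5-array fit (log2 fold change −0.52 ± 0.12 SE, limma BH-adjusted p = 0.012), and under median scaling of those 5 arrays it again passed (limma BH-adjusted p = 0.032).

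BSG did not enter the test, although its signals were well above the negative controls. They were 1997, 2288 and 2247 with DMSO and 1438, 1937 and 753 with leflunomide, while negative control means were 36.8 to 59.6. Its detection p-values, 0.21, 0.11 and 0.095 with DMSO and 0.047, 0.23 and 0.22 with leflunomide, were not multiples of 1/759, as a rank among 759 negative controls gives. The p-values of TIMP2 were not such multiples either, and those of the other 8 members were. The signals of these 8 each recurred in 1 row of the other deposited table on all 6 arrays, within 2e-05 on the natural log scale after 1 factor per array, and those of BSG and TIMP2 did not. The BSG and TIMP2 rows therefore hold values that differ in make-up from single rows of that table, and the detection p of BSG was not read as a level. With no detection filter BSG differed by −0.05 ± 0.12 on the log2 scale (SE, limma BH-adjusted p = 0.90, exact two-sided permutation p = 0.6), and without leflunomide replicate 3 by −0.13 ± 0.10 (SE, limma BH-adjusted p = 0.55).

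**Figure D2:**
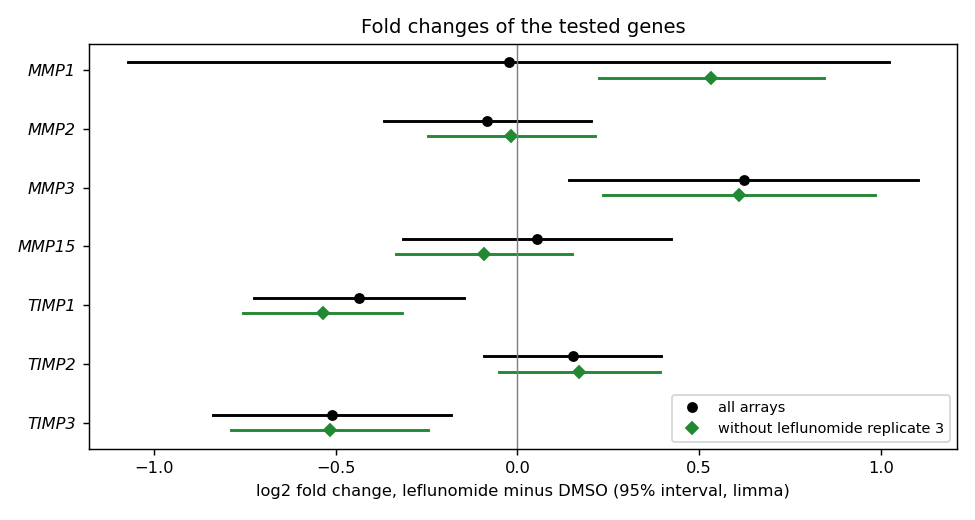
Log2 fold change of the 7 tested genes, leflunomide minus DMSO, from limma, with all 6 arrays (black circles) and without leflunomide replicate 3 (green diamonds), with bars for 95% intervals. The interval of MMP1 shrinks from −1.07 to 1.02 to 0.22 to 0.84, while the estimates of MMP3 and TIMP3 hardly move.

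Among the other MMP genes, 6 of 17 were tested and none passed with all arrays (2 at an unadjusted p under 0.05 by limma). Beside this and the later lists, limma called 1.07% of all genes with all arrays and 19.3% in the 5-array fit. With all arrays 16.9% of all genes had an unadjusted p under 0.05 by limma. The median log2 fold change of these 6 was −0.12. MMP9, gelatinase B, had signals of 986, 1499 and 1031 with DMSO and 550, 840 and 267 with leflunomide, and its log2 fold change was −0.47 ± 0.13 (SE, limma BH-adjusted p = 0.16). MMP9 fell 1.42-fold in the 5-array fit (limma BH-adjusted p = 0.010). MMP10, stromelysin-2, was detected with DMSO on all 3 arrays but with leflunomide on none. It thus met the detection filter through its DMSO arrays alone. By group means it was at least 1.21-fold lower with leflunomide, and did not pass (limma BH-adjusted p = 0.16). Without leflunomide replicate 3 it was at least 1.29-fold lower (limma BH-adjusted p = 0.020). These bounds make no allowance for the spread between arrays. MMP13, the third collagenase, had signals of 66.8, 70.3 and 66.5 with DMSO and 85.0, 90.4 and 16.9 with leflunomide. After normalization MMP13, like MMP1, was above all DMSO arrays on leflunomide replicates 1 and 2, and it was not above background on replicate 3. Unlike that of MMP1, its signal on replicate 3 lay below the negative control average of that array, 36.8 ± 6.52 (SD). The log2 fold change of MMP13 was 0.38 ± 0.33 (SE, limma BH-adjusted p = 0.58) with all arrays. In the 5-array fit MMP13 rose 1.83-fold (limma BH-adjusted p = 0.00024), where it was detected on 2 of 3 DMSO arrays. MMP16, a membrane-anchored MMP, was at −0.21 ± 0.10 (SE, limma BH-adjusted p = 0.33) with all arrays and at −0.21 ± 0.10 (SE, limma BH-adjusted p = 0.17) in the 5-array fit.

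In the RefSeq gene order, 9 MMP genes form a cluster on chromosome 11, and 4 of them were tested. Along the chromosome these are MMP10, MMP1, MMP3 and MMP13, the first 3 of which are neighbours among the MMP genes. In the 5-array fit their log2 fold changes were −0.54, 0.53, 0.61 and 0.87, so MMP10 went the other way from the rest. MMP10 was tested only because it was detected with DMSO. MMP7, MMP20, MMP27, MMP8 and MMP12 of this cluster did not pass the detection filter.

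Of 9 other genes linked to MMP inhibition or collagen processing, 6 were tested and none passed with all arrays (3 at an unadjusted p under 0.05 by limma), with a median log2 fold change of −0.32. PCOLCE, an enhancer of procollagen processing, was at 0.61 ± 0.09 (SE, limma BH-adjusted p = 0.051), and without leflunomide replicate 3 it rose 1.53-fold (limma BH-adjusted p = 0.0013). THBS2, which encodes a matricellular protein that clears MMP2, was at −1.04 ± 0.29 (SE, limma BH-adjusted p = 0.16) and fell 1.80-fold without that array (limma BH-adjusted p = 0.0032). SPOCK1, the gene of the proteoglycan testican-1, was at −0.48 ± 0.11 (SE, limma BH-adjusted p = 0.11) with all arrays and fell 1.32-fold in the 5-array fit, and THBS1, the gene of thrombospondin-1, was at −0.70 ± 0.29 (SE, limma BH-adjusted p = 0.30) and at −0.37 in the 5-array fit, and did not pass in either.

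Plasmin, made from plasminogen by the activators PLAT and PLAU, can activate MMP precursors. The 3 genes of the related lists that passed with all arrays, PLAT, SERPINB2 and ITGA2, did not pass under median scaling, or when any array other than leflunomide replicate 3 was left out. In the plasmin list of 13 genes, 10 were tested, 2 fell, none rose and 8 did not pass with all arrays, with a median log2 fold change of −0.24. Of all genes 0.834% were called lower with all arrays. PLAT had normalized signals of 1823, 2482 and 2277 with DMSO and 1044, 1083 and 967 with leflunomide, and fell 2.11-fold (log2 fold change −1.08 ± 0.14 SE, limma BH-adjusted p = 0.036), and 2.01-fold in the 5-array fit. SERPINB2, an inhibitor of PLAU, fell 2.61-fold (log2 fold change −1.38 ± 0.17 SE, limma BH-adjusted p = 0.028), and 2.94-fold in the 5-array fit. Its signals were 124, 160 and 104 with DMSO and 60.9, 68.1 and 43.0 with leflunomide. Negative controls on the leflunomide arrays averaged 56.5 ± 5.87, 59.6 ± 12.2 and 36.8 ± 6.52 (SD). The SERPINB2 fold therefore rests on leflunomide values near background, and its size is uncertain. PLAUR, the receptor of PLAU, was at −0.54 ± 0.12 (SE, limma BH-adjusted p = 0.11). In the 5-array fit 5 of the 10 were lower and 1 was higher, with PLAUR among the lower ones (limma BH-adjusted p = 0.0091). Of all genes 9.94% were called lower and 9.33% higher in that fit.

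The list of AP-1 and ETS factors, which bind MMP promoters, had 12 of 15 genes tested and none past the threshold with all arrays. An unadjusted p under 0.05 by limma was reached by 7 of the 12, and by 16.9% of all genes. The median log2 fold change of the list was 0.10. ATF3, a stress-induced partner of JUN, was among the 3 not tested, and is named here after its values were seen. Its normalized signals were 311, 273 and 251 with DMSO and 33.3, 38.5 and 23.5 with leflunomide, and its detection p-values, like those of BSG, were no ranks and were above 0.05 on every array. In the fit of 25233 genes without a detection filter ATF3 fell 8.91-fold (log2 fold change −3.16 ± 0.20 SE, limma BH-adjusted p = 0.013), and without leflunomide replicate 3 it fell 8.88-fold (limma BH-adjusted p = 0.00045). With all arrays limma called 186 of those 25233 genes. Before normalization ATF3 was at 70.1, 84.9 and 38.8 with leflunomide. Negative controls there averaged 56.5 ± 5.87, 59.6 ± 12.2 and 36.8 ± 6.52 (SD). The ATF3 fold thus rests on leflunomide values near background, and its size is uncertain. FOS and JUN, the core AP-1 genes, were at −1.09 ± 0.34 and −0.79 ± 0.19 (SE, limma BH-adjusted p = 0.19 and 0.13). In the 5-array fit, 3 of the 12 factors were higher and 4 lower, where 9.33% of all genes were higher and 9.94% lower. In that fit FOS fell 1.70-fold and JUN 1.53-fold (limma BH-adjusted p = 0.0012 and 0.0037). ELF3, an ETS factor of epithelia, was at 1.28 ± 0.20 (SE, limma BH-adjusted p = 0.051) with all arrays, and ETS2 was at 0.64 ± 0.17 (SE, limma BH-adjusted p = 0.15). Both rose without leflunomide replicate 3, ELF3 2.36-fold and ETS2 1.44-fold (limma BH-adjusted p = 5.6e-05 and 0.012).

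Among 13 partners of basigin and cell surface anchors of MMPs, 11 were tested, 1 fell and 10 did not pass, with a median log2 fold change of −0.05. The share of all genes called lower was 0.834%. The gene that fell was ITGA2, a subunit of the collagen receptor to which MMP1 binds, with a 1.94-fold decrease (log2 fold change −0.96 ± 0.14 SE, limma BH-adjusted p = 0.046), and 1.81-fold in the 5-array fit. Its normalized signals were 523, 604 and 501 with DMSO and 304, 297 and 239 with leflunomide. ITGAV and ITGB3, subunits of an integrin that binds MMP2, and SLC16A7, a lactate transporter gene, had log2 fold changes of −0.47 ± 0.24, 0.26 ± 0.18 and −0.36 ± 0.25 (SE, limma BH-adjusted p = 0.39, 0.50 and 0.51) with all arrays. They were at −0.20, 0.43 and −0.13 in the 5-array fit, and none passed (limma BH-adjusted p = 0.22, 0.062 and 0.59).

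**Figure D3:**
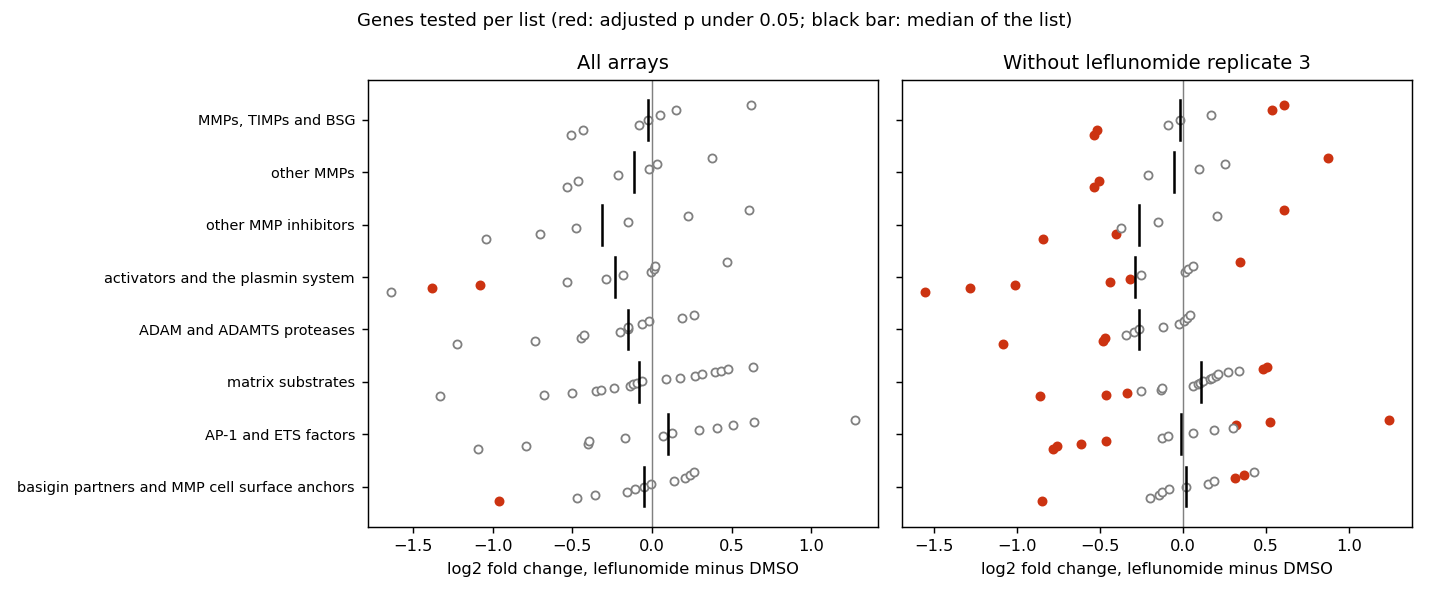
Log2 fold change, leflunomide minus DMSO (horizontal axis), of each tested gene of the 7 tested members and of 7 related lists, with all arrays (left) and without leflunomide replicate 3 (right), where filled red points passed an adjusted p of 0.05 and black bars are list medians. Of 74 tested genes in the related lists, 3 passed with all arrays and 30 without that array, where 1.07% and 19.3% of all genes passed.

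**Figure D4:**
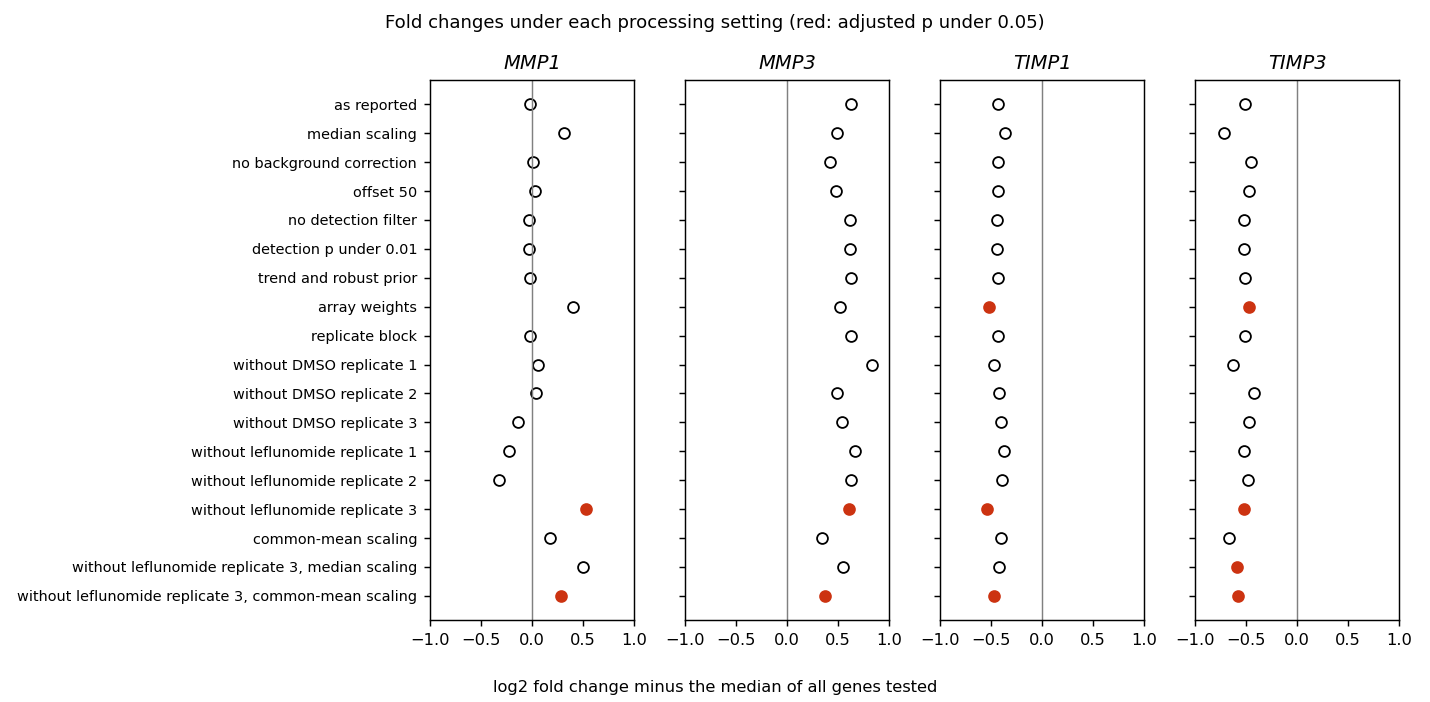
Log2 fold change of MMP1, MMP3, TIMP1 and TIMP3 minus the median of all genes (horizontal axis) under each processing setting (rows), with red points past an adjusted p of 0.05. MMP3 stays above the median of all genes and TIMP1 and TIMP3 stay below it in each setting shown, while MMP1 lies on either side. Settings that change only the detection filter, the variance model or the replicate block keep the reported fold changes.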

How the data were processed

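The labels give 6 Illumina bead arrays of A375 cells, 3 with DMSO and 3 with leflunomide. Per the file headers, the deposited intensity of each row is an average bead signal, not yet normalized, and a detection p-value stands beside it. The submitters' processing notes name GenomeStudio. Its version, a genome build and a probe annotation were not given in the sources used here. A further deposited table holds intensity values without gene names, which were linked to the first only by their values, so its rows were not named.

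The normexp background correction of limma 3.58.1 (R 4.3.3) was used. Negative control parameters came from the 32290 rows whose detection p-values were multiples of 1/759 within 0.001 of a whole rank, the offset was 16, and arrays were quantile normalized. This offset understates the change of dim genes. Symbols were current in RefSeq for 14193 rows, 3625 took the current symbol of a RefSeq synonym, and other rows kept the file's name. Where renaming joined rows, the brightest was kept.

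Leflunomide was compared with DMSO by limma over 12345 genes with Benjamini-Hochberg adjustment and no replicate block. The number of arrays limits the precision. Where a gene with rank p-values was not above background on any array of 1 treatment, its fold is a bound, taken against the higher of its own signal and the lowest detected signal on each array. From each related list, the genes past the threshold and up to 4 with the largest absolute change with all arrays are named. The values of 1 gene that this rule names are not reported here. The genes and lists were chosen with earlier results of these data known. Alternatives were other scalings, background corrections, filters, variance models, array weights, a replicate block and leaving out each array. Fits were also run without leflunomide replicate 3 under other scalings, which was chosen after seeing the data.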

Additional observations from a re-analysis of the deposited data

How the results depend on the processing

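Over all genes limma called 132 as reported, 0 under median scaling (1675 at an unadjusted p under 0.05), 2549 with array weights, and 3 to 2379 when each array was left out in turn, where the highest count came from leaving out leflunomide replicate 3. Of the calls 78.0% were lower, and 88.1% under common-mean scaling. Without leflunomide replicate 3 the calls numbered 737 under median scaling (95.8% lower) and 2234 under common-mean scaling (67.9% lower), against 51.6% lower with quantile normalization. Tested members past the threshold numbered 0 as reported (3 at an unadjusted p under 0.05), 2 with array weights, 0 to 4 when each array was left out, and, without leflunomide replicate 3, 1 under median and 4 under common-mean scaling. Genes of the related lists past it numbered 3 as reported, 0 under median scaling (22 at an unadjusted p under 0.05), 5 without a detection filter, 5 with the limit at 0.01, 30 with array weights, 0 to 30 when each array was left out, and 15 and 29 without leflunomide replicate 3 under median and common-mean scaling.

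TIMP1, TIMP3 and MMP2 kept a negative sign in all 17 alternatives. The alternatives that changed only the detection filter, the variance model or the replicate block returned the same estimates as reported. Signs in those alternatives were fixed in advance and are no check. Leaving out each array in turn gave MMP1 −0.33 to 0.53, MMP15 −0.092 to 0.17, and no other turn of sign among the tested members. MMP1 turned positive in 9 of the 17 alternatives. It was at 0.0043 without background correction, 0.027 with offset 50, 0.40 with array weights and 0.22 under common-mean scaling. It was at 0.055 and 0.037 without DMSO replicates 1 and 2, and at 0.53 without leflunomide replicate 3. Without leflunomide replicate 3 it was at 0.30 under median and 0.29 under common-mean scaling. MMP3 was negative under median scaling alone, at −0.041. MMP15 was at −0.40 under median scaling, −0.11 with array weights, and −0.092 and −0.29 without leflunomide replicate 3 under quantile and median scaling. TIMP2 was at −0.59 under median and −0.048 under common-mean scaling, and at −0.11 under median scaling without leflunomide replicate 3. Median scaling moved the median of all genes to −0.53, or to −0.19 without leflunomide replicate 3. Apart from what left-out arrays show, the cause of these shifts was not tested.

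A fit with replicate numbers as a block called 4 genes over all, 0 of the members (3 at an unadjusted p under 0.05) and 0 of the related lists (25 at an unadjusted p under 0.05). The numbers were not taken as pairs, since the labels do not say that equal numbers share a culture. The deviations of same-numbered arrays from their group means correlated at −0.0086, 0.21 and 0.22. Of the 6 arrays, 4 correlated best with their own number, so these values do not settle whether the arrays were paired. The second deposited table could not be fitted by itself because its rows have no gene names. MMP8 and MMP14 were limited by signals near background.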

Other observations

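ADAM and ADAMTS genes encode metalloproteinases related to the MMPs, several of which TIMP3 inhibits. Of 20 such genes 11 were tested, and none passed with all arrays (2 at an unadjusted p under 0.05 by limma), with a median log2 fold change of −0.15. ADAMTS6 had normalized signals of 77.2, 71.3 and 60.1 with DMSO and 30.6, 41.4 and 20.4 with leflunomide, and its log2 fold change was −1.23 ± 0.27 (SE, limma BH-adjusted p = 0.11). Before normalization its leflunomide signals were 67.8, 89.4 and 14.2. Negative controls on these arrays averaged 56.5 ± 5.87, 59.6 ± 12.2 and 36.8 ± 6.52 (SD). The change of ADAMTS6 thus rests on leflunomide values near or below background, and its size is uncertain. In the 5-array fit 3 of the 11 were lower, beside 9.94% of all genes, and 8 did not pass. ADAMTS6 fell 2.12-fold in that fit (limma BH-adjusted p = 0.00047). ADAMTS7 was at −0.44 ± 0.11 (SE, limma BH-adjusted p = 0.14) with all arrays and at −0.47 ± 0.11 (SE, limma BH-adjusted p = 0.013) without leflunomide replicate 3. ADAM19 was at −0.43 ± 0.18 (SE, limma BH-adjusted p = 0.30) and ADAM9 at −0.74 ± 0.41 (SE, limma BH-adjusted p = 0.42) with all arrays, and they were at −0.30 and −0.27 in the 5-array fit (limma BH-adjusted p = 0.14 and 0.12). The detection p-values of ADAMTS7, ADAM19 and DCN were not ranks, so they set no bound on these values. ADAMTS7 and ADAM19 met the detection filter through their DMSO arrays alone.

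Of 25 genes of matrix proteins, most of them MMP substrates, 18 were tested and none passed with all arrays (5 at an unadjusted p under 0.05 by limma), with a median log2 fold change of −0.08. Of these, 2 were higher and 3 lower in the 5-array fit, beside 9.33% and 9.94% of all genes. COL6A1, a chain of type VI collagen, was at 0.64 ± 0.18 (SE, limma BH-adjusted p = 0.17) with all arrays and rose 1.42-fold in the 5-array fit (limma BH-adjusted p = 0.022). DCN, the gene of the collagen-binding proteoglycan decorin, was at −0.68 ± 0.13 (SE, limma BH-adjusted p = 0.081), and without leflunomide replicate 3 it fell 1.82-fold (limma BH-adjusted p = 0.00031). TNC, the gene of tenascin C, was at −0.51 ± 0.17 (SE, limma BH-adjusted p = 0.22), and in the 5-array fit it fell 1.38-fold (limma BH-adjusted p = 0.043). BGN, the gene of biglycan, had normalized signals of 480, 418 and 20.1 on leflunomide replicates 1, 2 and 3 and of 349, 394 and 468 with DMSO. Its log2 fold change was −1.33 ± 1.21 (SE, limma BH-adjusted p = 0.58) with replicate 3 and 0.16 without it (limma BH-adjusted p = 0.42).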
